A study of Mus musculus with 5 samples.

Results

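The 5 genes described here encode macrophage chemoattractant receptors: the anaphylatoxin receptors C3ar1, C5ar1 and C5ar2 and the formyl peptide receptors Fpr1 and Fpr2. They are 5 of the 41388 gene IDs in the deposited tables, matched by Ensembl ID to symbol, and all 5 were among the 13408 genes with enough reads to be tested. RNA sequencing had been done on macrophages sorted from the outer and the inner layer of the mouse aorta. For the adventitia, 3 libraries were made from ApoE-/- mice of the C57BL/6 strain fed high fat chow over 28 weeks (the labels name 6 mice), and held live CD64+ cells from the digested outer layer of the whole aorta, abdominal part included. The 2 intima libraries came from C57BL/6 mice with no genotype or diet given, each a pool of 5 mice, and held live CD64+ CD11c+ MHC II+ cells from the thoracic aorta after its adventitia had been peeled away. Perivascular fat was removed in both, and no label gives the age of the mice or says how the 6 knockout mice were divided. Layer, genotype, diet as labelled, aortic segment and sort gate differed together, so their parts in any difference cannot be told apart, and p-values reflect only how far these libraries scatter, which may be technical.

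Anaphylatoxins are small fragments released when complement proteins C3 and C5 are cut. C3a binds C3aR, and C5a binds both C5aR1, the main receptor for chemotaxis and activation of myeloid cells, and C5aR2, which does not couple to G proteins and recruits arrestins. Formyl peptide receptors detect peptides that begin with N-formylmethionine, made by bacteria and by mitochondria. FPR1 is the high-affinity receptor for short formyl peptides, while FPR2 also binds host ligands such as serum amyloid A, annexin A1 and cathelicidin. Apart from C5aR2, these receptors signal through inhibitory G proteins of the Gi class. All are also expressed by neutrophils and monocytes, so markers of those cells are given with the results.

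The genes were chosen by their counts and CPM in these libraries, the intima and adventitia contrast included. Their own intima and adventitia values are therefore given as a description, without a test. Levels are deposited CPM (gene reads divided by the library total, times a constant) unless stated otherwise, and RPKM (CPM per kilobase of counted gene length) is used to compare 1 gene with another. Log2 differences are intima minus adventitia from the edgeR fit over all 5 libraries, with their standard error (SE). Library totals ran from 3941381 to 20806925 reads, so 3 reads corresponded to 0.144 to 0.761 CPM. Apoe was at 10.8 to 21.1 CPM in the 3 knockout-labelled libraries and at 4741 and 4209 CPM in the intima. Fcgr1, which encodes the CD64 of both gates, was at 115 to 279.7 CPM in the outer layer against 152 and 139 CPM in the inner, and Itgax, which encodes CD11c, at 19.5 to 35.2 CPM against 62.5 and 261 CPM. All 12 genes of a core macrophage list, led by Lyz2, had reads in every library, and none was called (edgeR; 2 higher and 1 lower at an unadjusted p under 0.05; 0 with DESeq2). The intima libraries stood apart from each other: of 7887 genes at 10 CPM or more in intima replicate 2, 12.3% were under 0.5 CPM in intima replicate 1, and 6.37% of 6864 in the other direction, against 0.778 to 1.38% between adventitia libraries. Each result that differs between the intima libraries is given for both.

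C3ar1 and C5ar1 were abundant in macrophages of both layers, C5ar2 had more reads in the intima, Fpr2 had reads in numbers only in the adventitia libraries, and Fpr1 varied widely inside each group. For 2 of the 5 genes no adventitia value fell inside the intima range or the reverse, C5ar2 with the intima above and Fpr2 with the intima below. Over all tested genes the ranges were apart for 40.5%, with the intima higher for 14.1% and lower for 26.4%. Nothing is read from this count, since this contrast took part in the choice of the genes. In bulk libraries, fewer expressing cells and less RNA per cell cannot be told apart.

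**Figure D1:**
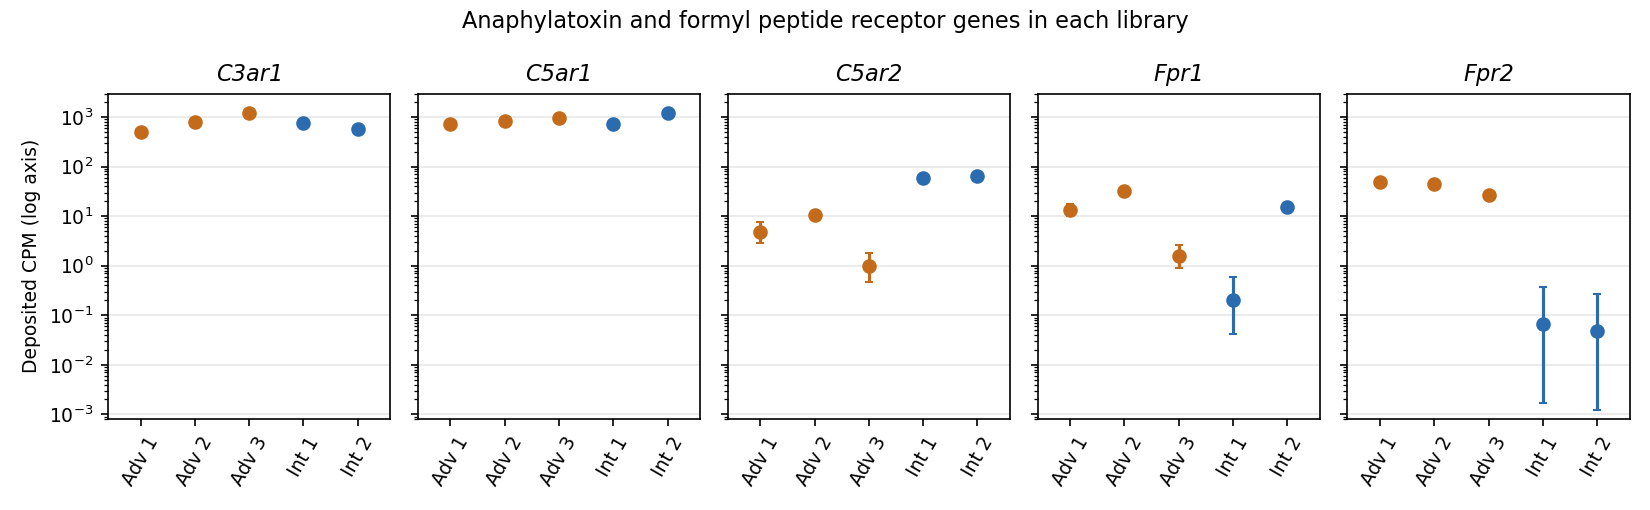
Deposited CPM (log axis) of the 5 receptor genes in the 3 adventitia (Adv, orange) and 2 intima (Int, blue) libraries; each point is 1 library and bars are exact Poisson 95% intervals, which cover counting error only. C3ar1 and C5ar1 lie between 509 and 1238 CPM everywhere, C5ar2 is at 59.8 and 65.7 CPM in the intima and at no more than 10.7 CPM in the adventitia, and Fpr2 is at 26.5 CPM or more in the adventitia and at 1 read in each intima library.

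C3ar1, the C3a receptor, lies on chromosome 6 from 122847138 to 122856161 of GRCm38, on the minus strand, with 2 exons and 4305 counted bases. It had 2008, 8159 and 12448 reads in adventitia replicates 1, 2 and 3, or 509, 809.7 and 1238 CPM. The intima libraries held 11577 and 12165 reads, or 773 and 585 CPM. Both intima values lay inside the range of the adventitia libraries, of which replicate 1 was the lowest of all 5 libraries and replicate 3 the highest. The means were 852 ± 366 CPM for the adventitia (SD, n = 3) against 679 ± 133 CPM for the intima (SD, n = 2). The log2 difference of -0.11 (SE 0.49) was smaller than its error, and its sign turned with the replicate block, without a filter on low counts, and without adventitia replicate 3 or intima replicate 2.

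C5ar1, the signalling C5a receptor, lies on chromosome 7 from 16246743 to 16259540, on the minus strand, with 2570 counted bases. It was the most expressed of the 5 receptors per length in every library. Its reads numbered 2810, 8582 and 9860 in the adventitia, or 713, 852 and 981 CPM, and 10859 and 25456 in the intima, or 725 and 1223 CPM. The groups overlapped: intima replicate 1 sat near the lowest adventitia library and intima replicate 2 above the highest. The means were 848 ± 134 CPM (SD, n = 3) and 974 ± 352 CPM (SD, n = 2), and the log2 difference of 0.40 (SE 0.42) was within its error and was -0.08 with upper-quartile scaling. By RPKM, C5ar1 ranked between place 97 and place 210 among all genes in the 5 libraries, and C3ar1 between place 216 and place 507.

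C5ar2, the C5a receptor without G protein coupling, is the neighbour of C5ar1 on the same strand of chromosome 7, from 16234585 to 16244154, with its annotated start 2589 bases beyond the end of C5ar1. It had 19, 108 and 10 reads in the adventitia libraries, or 4.82, 10.7 and 0.995 CPM. The intima libraries held 895 and 1367 reads, or 59.8 and 65.7 CPM. Every intima value was above every adventitia value, and the intima libraries lay within 1.10-fold of each other while the adventitia libraries spread over 10.8-fold. The means were 62.7 ± 4.18 CPM for the intima (SD, n = 2) against 5.51 ± 4.90 CPM for the adventitia (SD, n = 3), with a log2 difference of 3.75 (SE 1.03). Pooled reads over TMM-adjusted library sizes gave a ratio of 12.7 with an exact 95% counting interval of 10.7 to 15.2, which leaves out the spread between libraries.

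The promoters of C5ar1 and C5ar2 are shown because these neighbours answer to the same ligand yet stood at different levels. Each stretch holds 250 bases before and 50 bases after a RefSeq start in GRCm38.p6, read 5′ to 3′ on the minus strand, at chr7:16259289-16259588 for C5ar1 and chr7:16244105-16244404 for C5ar2. Capitals mark matches, on either strand, to AGGAAG, the core bound by PU.1 and other ETS factors of myeloid cells.
C5ar1: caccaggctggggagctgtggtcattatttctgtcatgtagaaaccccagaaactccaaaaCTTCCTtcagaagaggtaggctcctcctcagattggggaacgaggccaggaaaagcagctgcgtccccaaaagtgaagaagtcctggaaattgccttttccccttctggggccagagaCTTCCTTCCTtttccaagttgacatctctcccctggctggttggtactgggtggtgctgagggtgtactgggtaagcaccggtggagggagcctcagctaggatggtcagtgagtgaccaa
C5ar2: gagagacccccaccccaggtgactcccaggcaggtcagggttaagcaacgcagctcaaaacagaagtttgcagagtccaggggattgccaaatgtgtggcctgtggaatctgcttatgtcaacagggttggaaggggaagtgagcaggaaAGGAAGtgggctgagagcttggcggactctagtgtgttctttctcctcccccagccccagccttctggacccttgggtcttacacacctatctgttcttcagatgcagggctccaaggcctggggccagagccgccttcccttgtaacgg

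The C5ar1 stretch held 3 matches, at 189, 71 and 67 bases before the start, of which the last 2 overlap, and the C5ar2 stretch held 1, at 100 bases before it. Neither held TGANTCA, the AP-1 site, nor TATAAA, the TATA box. Over all 32851 RefSeq promoter stretches, 35.4% held AGGAAG, 7.81% TGANTCA and 13.6% TATAAA, so a match is common and is no more than a description. The RefSeq start of C5ar1 lies 202 bases inside the first start of the deposited annotation, and C5ar2 has a further RefSeq start, 1823 bases downstream, which is not shown.

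The balance of the C5a receptors differed between the groups in these libraries. C5ar1 exceeded C5ar2 by 205-, 110.1- and 1366-fold in RPKM in the adventitia libraries and by 16.8- and 25.8-fold in the intima libraries. All 3 adventitia ratios lay above both intima ratios. They rest on 19, 108 and 10 C5ar2 reads, so their size is loose. They also restate the C5ar2 difference, which was known when the genes were chosen. C5ar2 made up 3.51 and 2.87% of the summed RPKM of the 5 receptors in the intima and 0.0404 to 0.518% in the adventitia. C5ar1 supplied the largest share in each library, from 55.2% in adventitia replicate 3 to 74.1% in intima replicate 2, and exceeded C3ar1 by 1.33- to 3.51-fold. The order by RPKM was C5ar1, C3ar1, Fpr2, Fpr1 and C5ar2 in all 3 adventitia libraries and C5ar1, C3ar1, C5ar2, Fpr1 and Fpr2 in both intima libraries.

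**Figure D2:**
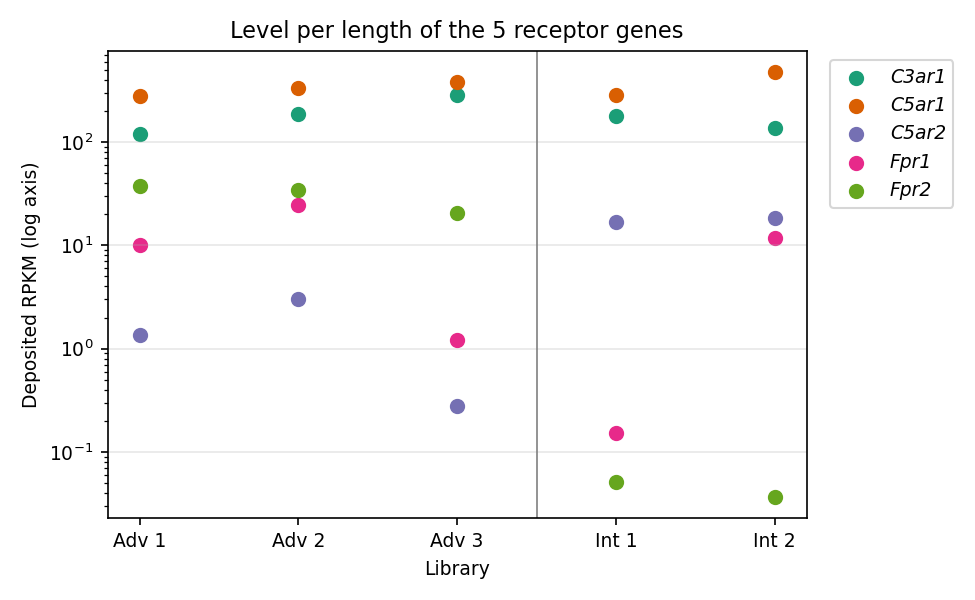
Deposited RPKM (log axis) of the 5 receptor genes in the 3 adventitia (Adv) and 2 intima (Int) libraries, 1 point per gene and library. C5ar1 and C3ar1 hold the top places in all libraries, and C5ar2 and Fpr2 exchange places between the groups.

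Fpr1, the high-affinity formyl peptide receptor, lies on the minus strand of chromosome 17 from 17876471 to 17883940, with 1324 counted bases. It had 53, 325 and 16 reads in the adventitia, or 13.4, 32.3 and 1.59 CPM. Intima replicate 1 held 3 reads (0.200 CPM), while intima replicate 2 held 325 (15.6 CPM). Each group thus held a library with ample reads and a library with few, and the groups overlapped. The spread was 20.3-fold among the adventitia libraries and 77.9-fold between the intima libraries. The log2 difference of -0.82 (SE 1.76) was smaller than its error, and it rested on single libraries: it was -5.81 without intima replicate 2, 0.02 without intima replicate 1 and 0.28 without adventitia replicate 2.

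Fpr2, the formyl peptide receptor of broad ligand range, begins 3884 bases away from the start of Fpr1 and is transcribed in the opposite direction, from 17887824 to 17893952 on the plus strand, with 1296 counted bases. It had 193, 450 and 266 reads in the adventitia libraries, or 49.0, 44.7 and 26.5 CPM. Each intima library held 1 read, equal to 0.0668 and 0.0481 CPM. All adventitia values lay within 1.85-fold of each other, and both intima values were under the floor of 3 reads. The adventitia mean was 40.03 ± 11.9 CPM (SD, n = 3), and the log2 difference was -8.98 (SE 1.53). The 909 adventitia reads against 2 intima reads gave a ratio of 591 over TMM-adjusted sizes, with an exact 95% counting interval of 163 to 4889.7. The log2 difference was -8.97, -8.91 and -9.22 when adventitia replicate 1, 2 or 3 was left out. Fpr2 passed the filter on low counts through the adventitia libraries alone.

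Fpr1 and Fpr2 are close neighbours that point away from each other, and the stretches around their starts are shown for that reason. They cover chr17:17883890-17884189 on the minus strand for Fpr1 and chr17:17887574-17887873 on the plus strand for Fpr2, from RefSeq in GRCm38.p6, 5′ to 3′, with 250 bases before and 50 after the start. Capitals mark TATAAA.
Fpr1: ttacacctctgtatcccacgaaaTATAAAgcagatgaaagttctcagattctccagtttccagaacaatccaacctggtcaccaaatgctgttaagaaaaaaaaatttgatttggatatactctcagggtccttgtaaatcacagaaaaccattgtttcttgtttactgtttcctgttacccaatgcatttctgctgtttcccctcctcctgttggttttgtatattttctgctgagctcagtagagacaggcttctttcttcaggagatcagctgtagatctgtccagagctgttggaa
Fpr2: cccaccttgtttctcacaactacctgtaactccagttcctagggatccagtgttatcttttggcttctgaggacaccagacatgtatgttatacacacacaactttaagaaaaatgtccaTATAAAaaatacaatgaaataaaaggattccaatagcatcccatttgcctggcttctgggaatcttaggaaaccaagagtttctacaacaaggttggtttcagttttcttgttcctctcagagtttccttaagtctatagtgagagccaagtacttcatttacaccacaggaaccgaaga

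Neither stretch held AGGAAG or TGANTCA on either strand, which says only that these letters are not in these windows. Each held TATAAA 1 time, at 227 bases before the Fpr1 start and 130 bases before the Fpr2 start. Both were poorer in G and C, at 40% and 39.3%, than the stretches of C3ar1 (46%), C5ar1 (53.7%) and C5ar2 (57.0%) and than the median of all promoters (52.7%).

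The formyl receptor family has near copies, which bears on how its reads can be counted. Of the 1295 different stretches of 50 bases, the read length, in GENCODE M21 transcripts of Fpr2, 31.5% also occur in transcripts of another gene: 368 in the pseudogene Gm5966, 82 in Fpr3 and 1 in Fpr1. Reads from these stretches may not have been assigned to Fpr2, and how such reads were treated is not given in the sources used here, so the level of Fpr2 is uncertain by that share. Fpr2 also shares 48 exon bases with Fpr3 on the same strand. Gm5966 was not analysed here. For Fpr1 the figure was 1 of 1275 stretches, and for C3ar1 and C5ar1 it was 0. For C5ar2 it was 4.39%, spread over 574 genes, and C5ar2 overlaps the small RNA gene Gm26473 by 127 exon bases, which had no reads of its own.

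The other formyl receptor genes of the mouse were close to silent in these libraries. Fpr3 had 1 read in all, in adventitia replicate 3, Fpr-rs3 had 2 reads in that library, and Fpr-rs4 had 1 read in adventitia replicate 1. Fpr-rs6 and Fpr-rs7 had none, and the intima libraries held no read of any of these 5 genes. A count of 0 allows up to 3 reads, or 0.144 CPM in the deeper intima library and 0.200 CPM in the other. None of the 5 passed the filter on low counts, so none was tested.

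Genes that supply the ligands were taken from lists of pathway genes and read from the fit over all genes, where the median log2 difference was 0.14. These lists and those below were chosen with earlier results of these data known. Their called genes and p-values are therefore a description and no independent test. Of the complement activation genes, 2 of 16 tested members fell in the intima, C3 and C4b, and 0 rose (edgeR; 1 higher and 5 lower at an unadjusted p under 0.05; 1 higher and 4 lower with DESeq2). Of all 13408 tested genes, 0.671% were called in edgeR, 0.149% lower in the intima and 0.522% higher. The remaining 14 listed genes did not pass in edgeR, and the list median was -0.63. Over all 31645 genes with a read, DESeq2 called 501 higher and 1658 lower. The share at an unadjusted p is not given over all genes, so those counts, for every list, are a description only. C3, the source of C3a, was at 63.2, 110.3 and 74.3 CPM in the adventitia against 3.94 and 2.69 CPM in the intima. The groups did not overlap, and edgeR gave a log2 difference of -4.39 (SE 0.83) with adjusted p = 0.0393. C4b, whose product is part of the C3-cleaving enzyme, was at 459.7, 402 and 256 CPM against 30.9 and 29.7 CPM, with a log2 difference of -3.36 (SE 0.50) and adjusted p = 0.0104 in edgeR. Without adventitia replicate 1, 2 or 3 the log2 difference of C3 was -4.66, -4.16 and -4.46, and without intima replicate 2 it was -3.99, but the call was lost each time (adjusted p = 0.167, 0.151, 0.140 and 0.0703 in edgeR). The call of C4b was lost without adventitia replicate 1 (adjusted p = 0.124 in edgeR), with a log2 difference of -3.32. The summed fibroblast markers, given below, were also lower in the intima, and the part of such cells in C3 and C4b was not tested.

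Hc, the mouse gene of complement C5 and so the source of C5a, had between 1 and 9 reads per library and was not tested. C1qb, a chain of the recognition molecule C1q and the most abundant gene of the list, was at 6441 to 9987 CPM in the adventitia against 8258 and 6237 CPM in the intima, and its log2 difference was 0.09 (SE 0.48), short of the threshold. Among carboxypeptidase genes tied to the trimming of anaphylatoxins, only Cpn1, Cpn2 and Cpb2 were listed. Cpn2 had at most 7 reads and Cpb2 at most 2 in any library, while Cpn1 had 124 reads in intima replicate 1 and 7 or fewer elsewhere. These carboxypeptidases were named after their values had been seen.

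Of the host ligands of formyl receptors, 5 of 9 genes had enough reads to be tested, and Saa3 fell in the intima while 0 rose (edgeR; 0 higher and 1 lower at an unadjusted p under 0.05 and the same numbers with DESeq2). Saa3, a serum amyloid A made outside the liver, was at 182, 42.7 and 74.3 CPM in the adventitia. It had 1 read in intima replicate 1 (0.0668 CPM) and 32 reads in replicate 2 (1.54 CPM), below every adventitia library. Its log2 difference was -6.69 (SE 1.28, adjusted p = 0.0424 in edgeR), and it was -6.12 without adventitia replicate 1 and -6.87 without adventitia replicate 3. The call was lost in both (adjusted p = 0.242 and 0.121 in edgeR). Anxa1, the pro-resolving ligand annexin A1, was at 120.0 to 569 CPM in the adventitia against 273 and 553 CPM in the intima, with full overlap. App, the amyloid precursor and the most abundant of the list, differed by -0.64 on the log2 scale (SE 0.41), short of the threshold. Camp, the cathelicidin gene, had at most 2 reads in any library. The median of the 5 tested members was 0.51.

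**Figure D3:**
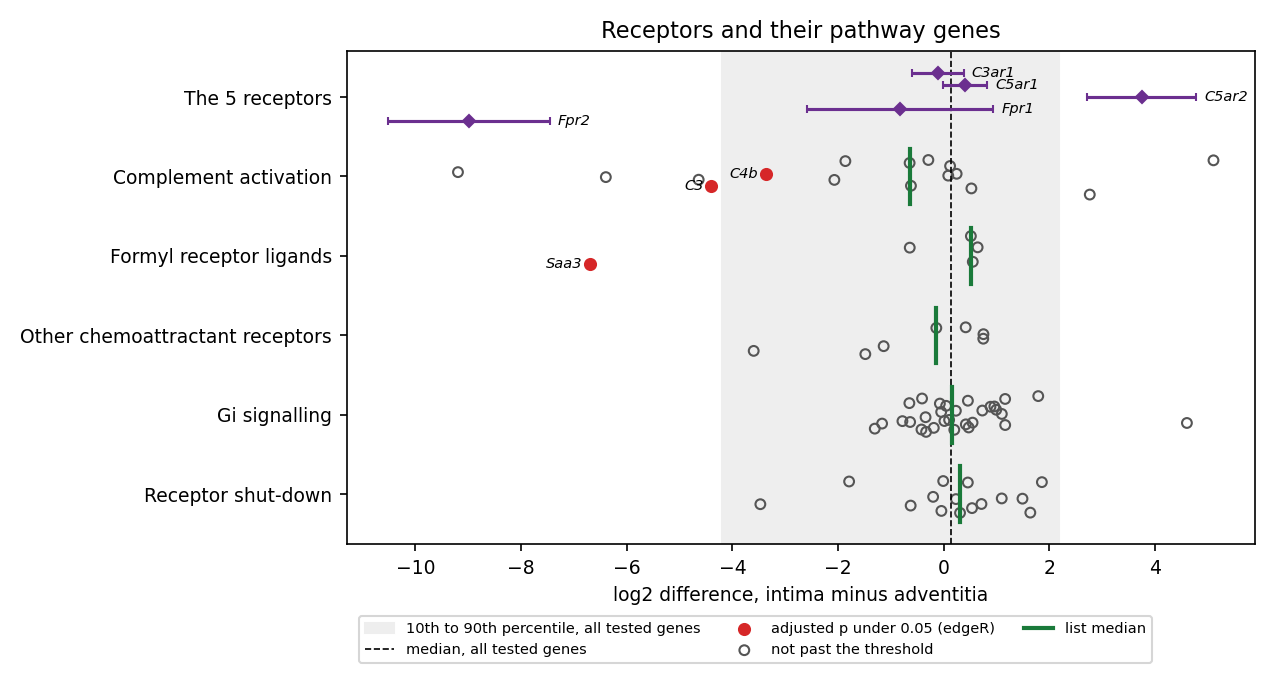
Log2 difference between intima and adventitia (x axis) for the 5 receptors (purple diamonds, bars are SE, no test) and for the tested members of 5 pathway lists (circles, filled red where the edgeR adjusted p is under 0.05); green bars are list medians, and the grey band spans the 10th to 90th percentile of all 13408 tested genes. C3, C4b and Saa3 are the called pathway genes, all toward the adventitia, and list medians lie between -0.63 and 0.51.

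Other receptors for chemoattractants, which bind lipids and small proteins, gave 0 called of 7 tested (edgeR; 0 higher and 2 lower at an unadjusted p under 0.05; 0 with DESeq2), with a median log2 difference of -0.14. Ccrl2, a chemerin-binding receptor that does not signal, was at 356 to 485 CPM in the adventitia against 473 and 768 CPM in the intima. Ptafr, the receptor for platelet-activating factor, was at 348 to 819.6 CPM against 673 and 660.4 CPM. Cysltr1, a cysteinyl leukotriene receptor named after its values had been seen, was at 187 to 267 CPM against 79.8 and 61.1 CPM, and its log2 difference of -1.48 (SE 0.48) was short of the threshold. Ltb4r1, the high-affinity leukotriene receptor of neutrophils, had 14 reads or fewer in any library.

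Transducers downstream of these receptors did not separate the groups past the threshold. None of 30 tested genes of Gi signalling was called (edgeR; 3 higher and 0 lower at an unadjusted p under 0.05; 1 higher with DESeq2), and their median log2 difference was 0.15, beside 0.14 for all genes. Gnb1, a beta subunit of G proteins and the most abundant, was at 679 to 1599.8 CPM in the adventitia against 1087 and 1385 CPM in the intima. Gnai2, the main Gi alpha subunit of leukocytes, was at 387 to 648 CPM against 651 and 294 CPM, with a log2 difference of 0.20 (SE 0.47). Not every member was as flat as Gnb1 and Gnai2. Among the 30 tested genes the CPM ranges were apart with the intima higher for 5 and lower for 5. Over all 13408 tested genes the shares were 14.1% higher and 26.4% lower, so nothing is read from this count. Plcb4, a list member whose tie to Gi was not examined here, had 0.796 to 4.06 CPM in the outer layer. It had 18.6 and 57.6 CPM in the inner. Gnb2 had 64.1 to 155 CPM and 31.5 and 50.8 CPM. Both were picked with their values known.

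None of 15 tested genes that shut receptors off, such as arrestins, receptor kinases and RGS proteins, was called either (edgeR; 2 higher and 1 lower at an unadjusted p under 0.05; 0 with DESeq2), and their median was 0.31. Rgs1, an RGS protein that speeds the turning off of Gi and the most abundant of the list, was at 1281, 2037 and 1803 CPM in the adventitia against 5018 and 5623 CPM in the intima. The intima libraries were above the adventitia libraries, and the log2 difference of 1.86 (SE 0.44) missed the threshold with adjusted p = 0.0868 in edgeR. Rgs2, of the same family and named after its values had been seen, was at 252 to 393 CPM against 792 and 762 CPM. Its log2 difference was 1.49 (SE 0.40), with adjusted p = 0.0905 in edgeR. Rgs18, a further family member picked with its values known, went the other way. Its outer-layer libraries held 80.9 to 189 CPM and its inner-layer libraries 19.9 and 47.1 CPM (log2 difference -1.79, SE 0.64, short of the threshold). Among the 15 tested genes the CPM ranges were apart with the intima higher for 4 and lower for 2. The shares over all 13408 tested genes were 14.1% and 26.4%, and this count is a description only. In edgeR, Rgs1 passed without intima replicate 1 (adjusted p = 0.0433) or without intima replicate 2 (0.0452), with adjusted p from 3.57e-07 to 0.267 over all alternatives, DESeq2 included. Arrb2, the beta-arrestin that C5aR2 recruits, was at 59.0 to 110 CPM in the adventitia against 47.5 and 98.2 CPM in the intima.

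Neutrophil markers stood beside the formyl receptors as follows. None of 10 tested members of a list of 15 was called (edgeR; 1 higher and 3 lower at an unadjusted p under 0.05; 2 lower with DESeq2), with a median log2 difference of 0.46. Their summed level was 117 to 157 CPM in the adventitia against 83.6 and 281 CPM in intima replicates 1 and 2. Of the 15 genes, 9 were at 0 in intima replicate 1 and 6 in intima replicate 2, Ly6g being at 0 in both and at 3 reads or fewer in each adventitia library. Il1r2, the most abundant, stood at 10.1 CPM in intima replicate 1 but 144 CPM in replicate 2, and of the 15 genes 8 were higher in intima replicate 2 than in intima replicate 1, 3 were lower and 4 had no reads in either. Cxcr2, Hdc, S100a9 and Trem1 had no reads in intima replicate 1 and 16.4 to 22.7 CPM in intima replicate 2, the library with the 325 Fpr1 reads. Mmp9 went the other way, from 68.7 CPM in intima replicate 1 to 0.961 CPM in replicate 2. S100a8 was at 20.5 to 57.8 CPM in the adventitia against 0.0668 and 1.01 CPM in the intima, short of the threshold. Apart from Il1r2, the most abundant, and Ly6g, a defining marker at 0, these markers were named after their values had been seen. The part of neutrophil RNA in the levels of Fpr1 and Fpr2 was not tested.

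**Figure D4:**
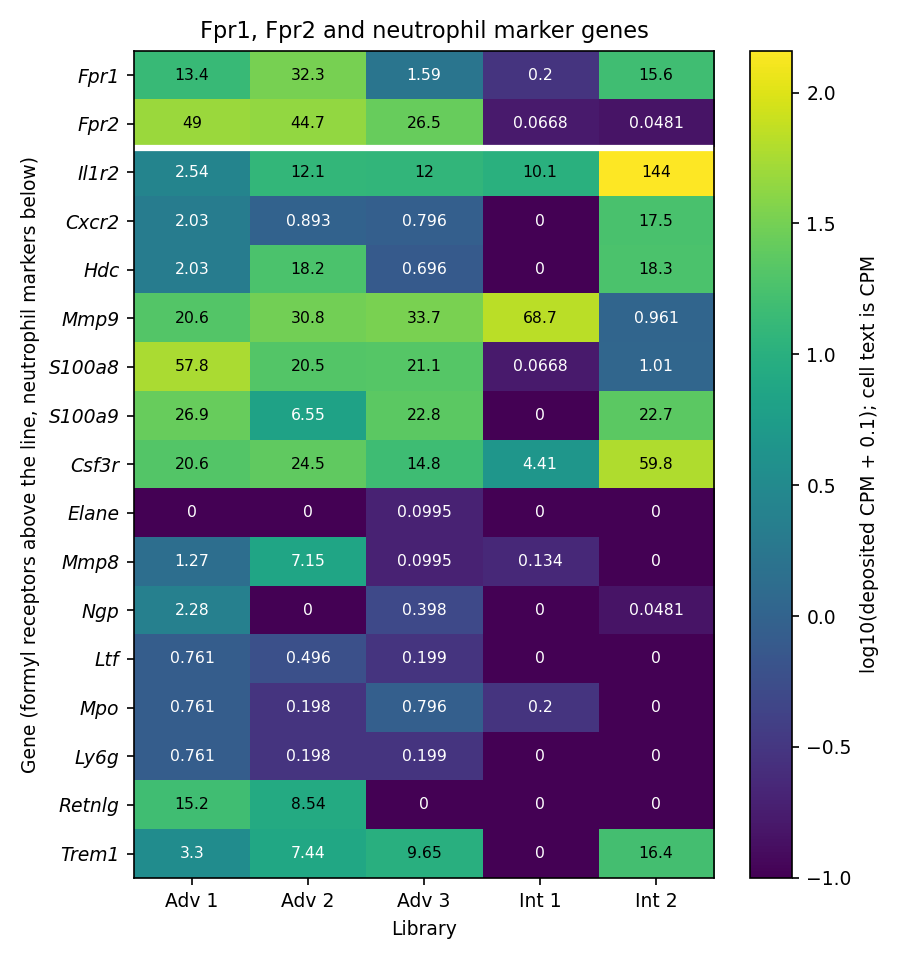
Deposited CPM of Fpr1 and Fpr2 (top rows) and of 15 neutrophil marker genes (rows) in the 5 libraries (columns: Adv, adventitia; Int, intima); colour is log10(CPM + 0.1) and the number in each cell is the CPM. In intima replicate 2, Fpr1 at 15.6 CPM and Cxcr2, Hdc, S100a9 and Trem1 at 16.4 to 22.7 CPM have reads, while Mmp9 is at 0.961 CPM against 68.7 CPM in intima replicate 1, S100a8 at 1.01 CPM and Fpr2 at 0.0481 CPM.

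Markers of other cells also moved with the groups. Of 12 tested monocyte markers, Plac8 fell and Ace and Itgal rose in the intima, with a summed level of 2415 to 2534 CPM in the adventitia against 921 and 1315 CPM in the intima. F13a1 was the most abundant of them. At an unadjusted p under 0.05 in edgeR 3 monocyte markers were higher and 4 lower, and with DESeq2 3 and 2. Dendritic cell markers summed to 453 to 623 CPM against 209 and 224 CPM with 1 of 10 tested lower (Cd209a), and fibroblast markers to 675 to 1512 CPM against 328 and 304 CPM with 1 of 10 lower (Lum). Cd209a and Dcn led these lists by mean CPM. Most of the dendritic sum in the intima came from Bst2, at 166 and 191 CPM there and 124 to 172 CPM in the adventitia. Xcr1 had no reads in the intima and Flt3 at most 0.0481 CPM. Clec9a was higher there, at 4.94 and 21.5 CPM against 0.397 to 4.82 CPM. At an unadjusted p under 0.05 in edgeR 6 dendritic cell markers were lower and 0 higher, and 5 fibroblast markers lower and 1 higher, while DESeq2 called 5 and 4 lower. Endothelial markers, led by Pecam1, summed to 33.5 to 62.7 CPM against 719 and 898 CPM with 3 of 11 tested higher (Pecam1, Emcn and Vwf), and smooth muscle markers, led by Acta2, to 15.4 to 60.1 CPM against 294 and 91.8 CPM with 1 of 7 higher (Tagln). At an unadjusted p under 0.05 in edgeR 7 endothelial markers were higher and 1 lower, and 2 smooth muscle markers higher, while DESeq2 called 7 and 2 higher. Mast cell markers summed to 197 to 395 CPM against 353 and 319 CPM, nearly all from Hpgds, with Cpa3, Mcpt4, Tpsb2 and Cma1 at 0 in both intima libraries. Lymphocyte markers, led by Cd79b, summed to 7.61 to 42.9 CPM against 21.9 and 75.4 CPM. None of 3 tested mast cell markers was called (edgeR; 0 higher and 2 lower at an unadjusted p under 0.05; 3 lower with DESeq2), and none of 7 lymphocyte markers (edgeR; 0 higher and 1 lower; 1 lower with DESeq2). The part of these other cells in the levels of the receptors and of the pathway genes, C3, C4b and Saa3 included, was not tested.

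The genes whose pattern over the 5 libraries was most like each receptor were found by the root mean square difference of centred log2(TMM CPM + 0.5) values. This was done over 6489 genes whose mean log2 CPM reached 4, after genes with a predicted-gene or clone name were left out. The nearest genes were picked over these same 5 libraries, so highs and lows shared with a receptor follow from the choice. Nearest to Fpr2 were Mob3b (0.34), Tmem8 (0.42) and Apoc4 (0.43), all with less than 1 CPM in both intima libraries. Nearest to C5ar2 were Sfrp2 (0.42), Znhit6 (0.44) and Procr (0.54), each with its lowest value in adventitia replicate 3, as C5ar2 had. Nearest to Fpr1 were Ap3m2 (0.39), Dele1 (0.56) and Slc7a11 (0.67), each under 1 CPM in intima replicate 1 and at 13.02 to 61.04 CPM in intima replicate 2. Nearest to C5ar1 were Hpf1 (0.05), Csnk2b (0.05) and Cggbp1 (0.09), and nearest to C3ar1 were R3hcc1l (0.13), mt-Co1 (0.14) and Tmem237 (0.14). Among the receptors themselves C3ar1 and C5ar1 were the closest pair (0.49), the formyl receptors differed from each other by 2.88 and the C5a receptors by 2.07, and C5ar2 and Fpr2 were farthest apart (4.98).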

How the data were processed

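Poly-A RNA of sorted cells was amplified with a low-input SMARTer kit, given 12 PCR cycles and sequenced as single reads of 50 bases, per the labels' protocols. Counted reads per gene (count), CPM and RPKM were deposited for each library, per the file headers, on GRCm38; STAR 2.0.4b, featureCounts 1.4.5 and Subread are listed, without roles, per the submitters' processing notes. Strand setting and treatment of multi-mapping reads are not given in the sources used here, so reads of overlapping genes cannot be told apart. Symbols were found for 40254 of 41388 IDs.

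Counts were tested with edgeR 4.0.16 in R 4.3.3 (glmQLFit, glmQLFTest; filterByExpr with minimum count 10 and total 15; TMM; Benjamini-Hochberg over 13408 genes; called under 0.05). SE is the log2 difference over the square root of F. Intervals are exact at 95%, and like the floor of 3 reads they cover counting error alone, as copies made by PCR carried no molecular identifier. The test was tried on simulated counts. Alternatives were other scalings and filters, DESeq2 1.42.0, thinning to the smallest library, a replicate block and leaving out each library.

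The receptors and gene lists were chosen with earlier results of these data known. Named genes were the 5 receptors, Apoe and sort markers, called genes and the most abundant gene of each pathway list, the most abundant marker of each cell type, defining markers at 0, and the 3 nearest genes by pattern; every other gene of a list that is named (such as Anxa1, Ccrl2, Gnai2, Arrb2, Hc, Camp and Ltb4r1) was picked after its values were seen. Python 3.11.15, pandas 2.3.3, scipy 1.17.1 and matplotlib 3.10.9 were used. Sequences are from RefSeq (GRCm38.p6), with all 5 receptors matched by symbol.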

Additional observations from a re-analysis of the deposited data

How the results depend on the processing

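Over 13 alternatives the log2 differences of C5ar2 (3.22 to 4.73) and Fpr2 (-10.40 to -8.58) kept their sign, while those of C3ar1 (-0.57 to 0.35), C5ar1 and Fpr1 did not. C5ar2 and Fpr2 were chosen with this contrast known and their CPM ranges were apart. A kept sign was therefore to be foreseen and is no test. The log2 difference of C5ar1 was -0.082 with upper-quartile scaling and 0.031 with thinned counts. That of Fpr1 ranged from -5.81 to 0.28 when a library was left out. That of Fpr2 was -9.45 with upper-quartile scaling, -10.40 with thinned counts and -9.36 to -8.58 when a library was left out. These low counts limit the size, since each intima library held 1 read.

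The number of called genes depended on the processing far more. Against 70 higher and 20 lower in the intima, there were 46 higher with upper-quartile scaling, 34 lower with library size alone, 312 higher and 74 lower without a filter, 135 and 261 with 1 CPM in every library of a group, 501 and 1658 with DESeq2, and 45 higher with thinned counts. Leaving out a library gave 9 to 229 higher and 1 to 160 lower. The median log2 difference of the same genes moved from 0.14 to -0.35 with upper-quartile scaling. The lower complement activation genes numbered 4 with 1 CPM in every library of a group and 4 with DESeq2, and 0 to 2 when a library was left out. Higher members of that list numbered 1 with DESeq2 and 0 to 1 when a library was left out. The lower formyl receptor ligands numbered 0 to 1 when a library was left out. Higher Gi signalling genes numbered 1 with DESeq2, and higher receptor shut-down genes 2 without a filter and 0 to 1 when a library was left out. The cause of these changes was not tested.

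The replicate numbers 1 and 2 occur in both groups but name different mice. Deviations of same-numbered libraries from their group means gave r = 0.0329 and 0.000609 across genes, which are not independent. With 2 intima libraries the deviations of 1 mirror those of the other. Each r is therefore the negative of that of a mismatched pair, and the check says little about pairing. With the replicate number as a replicate block, 133 genes were higher and 50 lower. The log2 difference was then 0.35 for C3ar1, 0.56 for C5ar1, -3.12 for Fpr1 and -9.18 for Fpr2. The lower complement activation genes numbered 3 in place of 2, as they also did with every scaling other than TMM and without a filter.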
